A study of Mus musculus with 162 samples.

Results

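Cheek skin of wild-type mice on day 5 of MC903 treatment was compared with vehicle-treated cheek skin, in 6 of the 162 libraries of the study. The 6 libraries were chosen by their labels alone (skin, wild-type, no injection, day 5), which gave 3 MC903 libraries and 3 ethanol libraries. All came from adult male C57BL/6 mice. The treated mice received 20 µl of 0.2 mM MC903 in ethanol on the shaved cheek once a day, and the controls received the same volume of ethanol. Both groups thus share the shaving and the solvent, and untreated skin is not part of the comparison. The labels do not say whether a library holds 1 mouse or a pool, or whether the replicates were prepared separately, so p-values measure the spread between these libraries, which may be in part technical.

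MC903, also called calcipotriol, is a vitamin D analog that activates the vitamin D receptor in keratinocytes. Applied daily to mouse skin, it is used as a model of atopic dermatitis, an itchy inflammatory skin disease with a defective epidermal barrier. In healthy epidermis, basal keratinocytes divide, leave the basement membrane, change their keratins and finally build the cornified envelope, a shell of crosslinked proteins such as filaggrin, loricrin and the late cornified envelope proteins, sealed by lipids. Injured or inflamed epidermis instead makes stress keratins, small proline-rich proteins and protease inhibitors, and it signals to immune cells and nerves with cytokines, growth factors and lipid mediators.

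The libraries held 24908151 to 30443775 reads counted to genes, and genes with at least 10 reads over the 6 libraries (24226 genes) were tested. Levels below are TMM-scaled cpm (counts relative to the library total), which are not corrected for gene length, so they are compared between libraries and not between genes. Folds are given as log2 fold changes, MC903 over ethanol, with their standard error, from the quasi-likelihood test of edgeR, with p-values adjusted by Benjamini and Hochberg's method across the tested genes. A gene is called higher or lower where that adjusted p is under 0.05.

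The libraries were skin, but they differed in what else they held. The 8 keratinocyte markers summed to between 22648 and 26840 cpm in the MC903 libraries and between 11889 and 16727 cpm in the ethanol libraries. Of these markers, 3 were called higher, 1 lower and 4 not called. The basal keratin gene Krt14 alone made up a large part of the MC903 sums. Salivary gland markers, 9 of which were tested, summed to 347, 118.4 and 5663 cpm in MC903 replicates 1, 2 and 3 but to 25710, 41828 and 86660 cpm in ethanol replicates 1, 2 and 3. Skeletal muscle markers were lower in every MC903 library (5869 to 10948 cpm) than in any ethanol library (15898 to 28175 cpm). Hair shaft genes ranged from 622 to 17355 cpm within the MC903 group and from 764 to 9790 cpm within the ethanol group. Ethanol replicate 3 stood apart: its 10 most abundant genes took 21.3% of its counts, against 7.60% to 11.3% in the other libraries, and its scaling factor was 0.767 against 1.01 to 1.09. It held the most salivary and muscle RNA and the most hair RNA among the controls. The calls and list counts that moved most without this library are given with and without it, and the part of tissue content in the results was not tested. In whole skin, fewer cells of a type and less RNA per cell cannot be told apart.

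**Figure D1:**
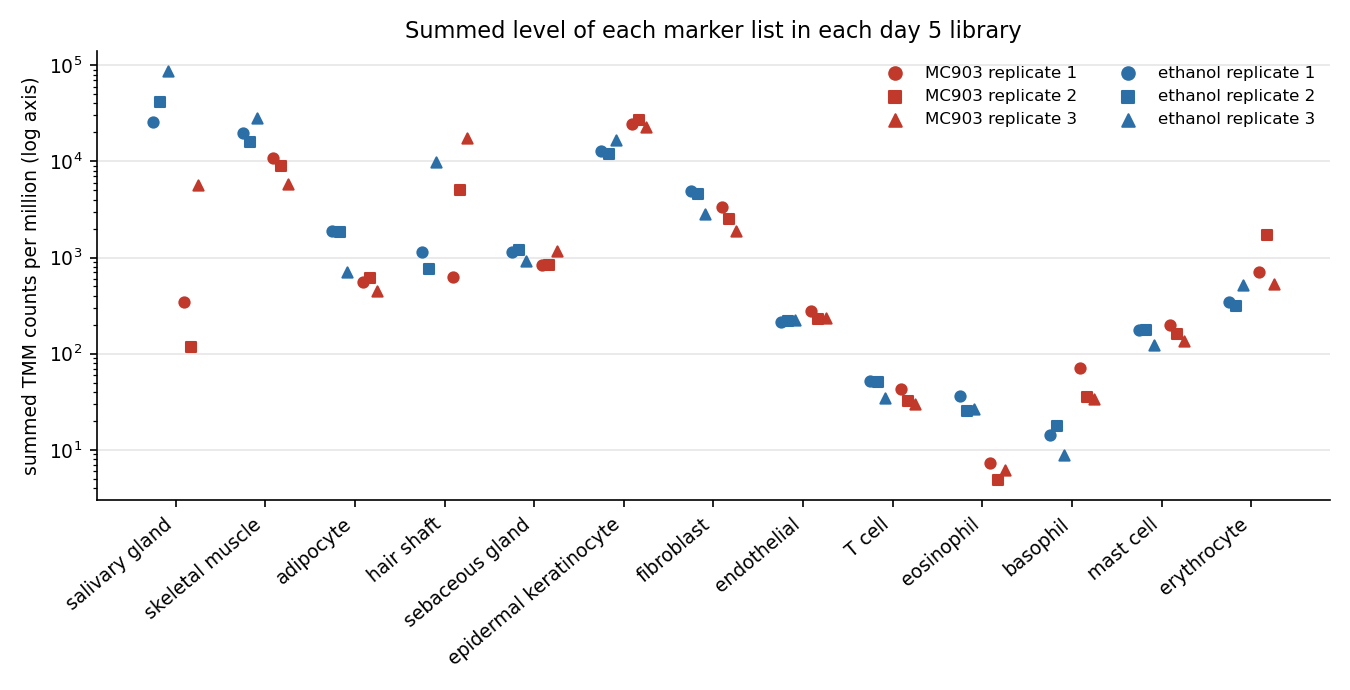
Summed TMM-scaled cpm (log axis) of 13 marker lists in each day 5 library, with MC903 in red, ethanol in blue and a symbol for each replicate. Salivary gland and muscle sums are higher in all 3 ethanol libraries, keratinocyte and basophil sums are higher in all 3 MC903 libraries, and hair shaft sums differ more within the groups than between them. Of the 8 keratinocyte markers, 3 were called higher and 1 lower.

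MC903 changed 3617 of 24226 genes, 14.9% of those tested, with 1974 higher (8.15%) and 1643 lower (6.78%). The changes were large at the high end: 267 genes rose and 171 fell by more than 8-fold, while 486 rose and 440 fell by more than 4-fold. The median log2 fold change over all tested genes was -0.03. Without ethanol replicate 3, 4907 of 23819 genes were called (20.6%), 2755 of them higher (11.6%) and 2152 lower (9.03%), whereas leaving out any other 1 of the libraries gave between 1677 (without MC903 replicate 2) and 2339 (without MC903 replicate 3). Those shares are the background for the counts of gene lists below. Of 216 called genes named here, 33 to 49 lost the call when 1 library other than ethanol replicate 3 was left out, and 5 did without that library. Adipoq, Cd34, Dgat2, Dst, Rbp4, Sparc and Srebf1 were among those whose call was lost without any 1 library other than ethanol replicate 3. Nts lost it without any 1 MC903 library or ethanol replicate 2. Slc39a6, Tgfa, Sema3b, Lyz1 and Timp2 lost it without MC903 replicate 2 or 3 or ethanol replicate 1 or 2. Rarb, Cd80 and Ptger3 lost it without replicate 1 or 2 of either group. Socs3 and Ms4a7 lost it without MC903 replicate 1 or 2 or ethanol replicate 2. Lep lost it without replicate 2 of either group or MC903 replicate 3, and Timp3 without MC903 replicate 2 or ethanol replicate 1 or 2. All 3 MC903 libraries lay above all 3 ethanol libraries for 18.8% of the genes tested and below them for 17.5%.

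Several of the largest changes lay in tandem gene families of the epidermis, which were singled out after their values were seen. Members of these families share much of their sequence, so reads may be split between copies, and a value for 1 copy is less certain than the value of its family. The promoters of 3 Sprr2 genes, which rose, and of 2 Skint genes, which fell, show where members resemble each other and where they do not. Each stretch is RefSeq sequence of the GRCm38.p6 build, from 250 bases before the gene start to 50 after it, written 5′ to 3′ on the strand of the gene. In the Sprr2 promoters the capitals mark the motif TGANTCA, the core to which AP-1 family factors can bind.
Sprr2b, chr3:92316455-92316754, + strand: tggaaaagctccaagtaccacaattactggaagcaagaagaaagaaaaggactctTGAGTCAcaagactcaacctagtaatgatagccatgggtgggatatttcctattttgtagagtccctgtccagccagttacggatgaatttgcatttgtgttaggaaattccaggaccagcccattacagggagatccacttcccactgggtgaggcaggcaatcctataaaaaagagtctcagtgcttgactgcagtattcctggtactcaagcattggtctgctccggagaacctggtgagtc
Sprr2d, chr3:92338890-92339189, + strand: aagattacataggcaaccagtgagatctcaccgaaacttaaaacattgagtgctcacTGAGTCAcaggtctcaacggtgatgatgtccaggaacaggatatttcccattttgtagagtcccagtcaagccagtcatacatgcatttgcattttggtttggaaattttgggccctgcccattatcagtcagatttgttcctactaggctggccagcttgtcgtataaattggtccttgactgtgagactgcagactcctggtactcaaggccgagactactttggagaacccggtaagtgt
Sprr2e, chr3:92351893-92352192, + strand: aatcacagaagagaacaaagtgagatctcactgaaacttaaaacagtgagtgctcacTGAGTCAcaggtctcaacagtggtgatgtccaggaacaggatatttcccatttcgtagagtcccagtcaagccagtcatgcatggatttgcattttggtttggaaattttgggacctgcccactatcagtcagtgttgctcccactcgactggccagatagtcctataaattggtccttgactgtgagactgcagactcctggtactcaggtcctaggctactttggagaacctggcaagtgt

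The Sprr2d and Sprr2e stretches shared 264 of 300 bases at the same position (88%), and those of Sprr2a1 and Sprr2a2 were the same at all 300. By the same count, Sprr2a1 shared 26.7% of positions with Sprr2a3 and 24% with Sprr2d. The count allows no gaps, so a shift of a few bases lowers it. Low values therefore cannot show that 2 promoters are unlike. TGANTCA, which reads the same on both strands, was found in 7 of the 10 Sprr2 promoters in the table (70%), against 7.81% of all 32851 promoters of that length. It was found in 1 of 4 promoters of the stefin A cluster and in none of the 6 Lce3 promoters. A match describes the letters only and shows no binding. In the Skint stretches the capitals mark the positions at which Skint5 and Skint6 differ. They shared 269 of 300 bases (89.7%), and Skint5 and Skint9 shared 25.3% by the same count without gaps. Of 12 Skint promoters, 1 held TGANTCA.
Skint5, chr4:113999454-113999753, - strand: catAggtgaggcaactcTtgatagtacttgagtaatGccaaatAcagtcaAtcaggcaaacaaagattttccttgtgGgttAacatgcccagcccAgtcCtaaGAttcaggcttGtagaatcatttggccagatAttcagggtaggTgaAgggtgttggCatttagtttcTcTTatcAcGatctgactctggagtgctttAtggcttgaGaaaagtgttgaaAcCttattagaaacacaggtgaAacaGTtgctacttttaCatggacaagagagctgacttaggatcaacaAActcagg
Skint6, chr4:113286924-113287223, - strand: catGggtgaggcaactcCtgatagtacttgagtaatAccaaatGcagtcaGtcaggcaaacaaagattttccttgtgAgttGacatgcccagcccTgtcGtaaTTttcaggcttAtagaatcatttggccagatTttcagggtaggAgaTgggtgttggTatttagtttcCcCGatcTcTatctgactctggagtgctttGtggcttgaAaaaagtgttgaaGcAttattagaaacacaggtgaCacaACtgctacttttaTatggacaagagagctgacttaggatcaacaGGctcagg

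A vitamin D enzyme and a steroid enzyme, Cyp24a1 and Akr1d1, rose steeply. Cyp24a1, the enzyme that inactivates vitamin D and a direct target of its receptor (GRCm38 chromosome 2, 170482708 to 170497145), stood at 6377, 5501 and 4774 cpm with MC903 and at 5.44, 7.04 and 8.86 cpm with ethanol, a log2 fold change of 9.61 ± 0.38 (SE, edgeR adjusted p = 1.3e-05). Akr1d1, a steroid 5-beta-reductase, was at 280, 278 and 254 cpm against 0.244, 0.369 and 0.283 cpm, 9.81 ± 0.25 (edgeR adjusted p = 4.5e-06). The 3 treated libraries lay close together for both genes, far above every control.

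Of the 13 tested members of the vitamin D list, 3 were higher and 1 was lower, with a median log2 fold change of 0.10 over the list. With ethanol replicate 3 left out, 4 were higher. Besides Cyp24a1, the calcium-binding protein S100g (5.57 ± 0.56) and the plasma membrane calcium pump Atp2b1 (1.40 ± 0.19) rose. Cyp27a1, a sterol hydroxylase that can also act on vitamin D, fell by 1.58 on the log2 scale. The receptor Vdr was at 146, 164 and 219 cpm with MC903 and at 101, 100 and 172 cpm with ethanol, and the groups overlapped. Its change of 0.50 ± 0.26 did not pass the test (edgeR adjusted p = 0.24). It did without ethanol replicate 3, at 0.83 (edgeR adjusted p = 0.027).

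The stress proteins of the epidermis rose in nearly all members. Of 33 tested members, 29 were higher and 0 were lower, with a median log2 fold change of 7.27. Without ethanol replicate 3 the count was 30. The keratins of hyperproliferative epidermis, singled out after their values were seen, rose together: Krt6b was at 8798, 10177 and 6649 cpm against 49.3, 42.4 and 74.6 cpm (7.27 ± 0.40, edgeR adjusted p = 7.2e-05), and Krt16 at 4323, 5443 and 3005 cpm against 70.5, 41.3 and 131.7 cpm (5.71 ± 0.53, edgeR adjusted p = 0.00062). Krt6a rose by 5.85 and Krt17 by 2.42. The groups were apart for all 4 keratins. Krt75 (1.39, edgeR adjusted p = 0.07) and Sprr4 (0.51, edgeR adjusted p = 0.36) were members of the list that did not pass.

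The stefin A cluster on chromosome 16 encodes cystatin-type inhibitors of cysteine proteases. All 9 tested genes of the cluster were higher, with a median of 8.49. Stfa1 was at 388, 441 and 285 cpm with MC903 and at 0.702, 0.258 and 0.754 cpm with ethanol (9.34 ± 0.46). BC100530 rose by 9.50 ± 0.31, BC117090 by 9.05 ± 0.32, Stfa3 by 8.10 ± 0.31 and Stfa2 by 8.49 ± 0.34, all with edgeR adjusted p of 3.5e-05 or less. Gm5416 had 1093, 1017 and 423 reads in the MC903 libraries and 1 read in all the ethanol libraries together, a ratio of 2505 with a 95% counting interval of 449 to 98962. Stfa2l1 had 4 ethanol reads in all and a ratio of 380 (148 to 1395). These exact conditional intervals cover counting error only.

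The small proline-rich proteins are crosslinked into the cornified envelope. Of 11 tested Sprr2 genes, 10 were higher, with a median of 7.69, and the exception, Sprr2k, had 5, 2 and 8 reads with MC903 and none in the controls. Sprr2d was at 58.4, 44.2 and 38.9 cpm against 0.0916, 0.184 and 0.141 cpm (8.38 ± 0.32, edgeR adjusted p = 1.3e-05), and Sprr2b rose by 7.68. Sprr2e, with 1 read in the ethanol group, had a ratio of 197 (34.9 to 7810). Sprr1b rose by 7.59, and by 8.62 without ethanol replicate 3. All 6 Lce3 genes, whose proteins are made in stressed or psoriatic skin, were higher, with a median of 7.01. Lce3c stood at 54.1, 38.4 and 38.8 cpm against 0.428, 0.369 and 0.566 cpm (6.60 ± 0.27).

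The proteins of normal cornification split into those that rose and those that fell. Of 39 tested members of the filaggrin and loricrin type list, 26 were higher and 6 lower, with a median of 1.65. Repetin, Rptn, a fused-type S100 protein of the cornified envelope (chromosome 3, 93393699 to 93399442), was at 6441, 7851 and 6383 cpm with MC903 and at 47, 45.9 and 47.8 cpm with ethanol (7.20 ± 0.29, edgeR adjusted p = 1.3e-05). The controls lay between 45.9 and 47.8 cpm. Corneodesmosin, Cdsn, which holds corneocytes together, rose by 2.93 ± 0.22, and the filaggrin-degrading protease Blmh rose by 2.81 ± 0.20.

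The 14 Lce1 genes, neighbours on chromosome 3 that encode late cornified envelope proteins, did not move as 1 block. Of these, 12 were higher, 1 was not called and 1 was lower. Lce1g was at 169, 137 and 131.6 cpm against 10.6, 7.92 and 12.1 cpm (3.84 ± 0.22), and Lce1e (3.47 ± 0.18) and Lce1k (3.51 ± 0.21) rose by similar amounts. Lce1l did not pass, at 0.68 (edgeR adjusted p = 0.12). Lce1m went the other way, from 719, 682 and 317 cpm with ethanol to 12.2, 18.1 and 5.56 cpm with MC903, and fell by 5.58 ± 0.54 on the log2 scale (edgeR adjusted p = 0.00083). No library of 1 group overlapped the other for Lce1g, Lce1e, Lce1k or Lce1m.

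Other differentiation proteins fell with Lce1m. Krt77, a keratin of the upper epidermis and sweat ducts, was at 31.3, 69.5 and 15.3 cpm with MC903 and at 2514, 2334 and 1897 cpm with ethanol, and fell by 5.86 ± 0.59 (edgeR adjusted p = 0.001). Krt10, the keratin of suprabasal cells, was at 393, 796 and 470 cpm against 3711, 3542 and 3209 cpm and fell by 2.66 ± 0.32. Its partner Krt1 moved the other way (0.94 ± 0.24, edgeR adjusted p = 0.036), a call lost without MC903 replicate 1 or 2 or ethanol replicate 1 or 2 (edgeR adjusted p of 0.0843 to 0.125). Loricrin, Lor, the main envelope protein, fell by 2.66 ± 0.30. Krt2 fell by 3.06 with levels of at most 2.69 cpm, a call that was lost without ethanol replicate 2 or 3 or MC903 replicate 1 or 2 (edgeR adjusted p of 0.0738 to 0.123).

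Flg and Flg2 showed opposite calls. Flg2 was at 84.5, 134 and 97.0 cpm with MC903 against 1380, 1487 and 814 cpm with ethanol. Flg, the filaggrin gene, was at 4.18, 4.45 and 3.84 cpm against 0.305, 0.479 and 1.84 cpm, 2.30 ± 0.60 (edgeR adjusted p = 0.038). The highest control value of Flg was that of ethanol replicate 3, and without it the fold was 3.43 on the log2 scale (edgeR adjusted p = 0.0012). Leaving out any other library took the adjusted p of Flg to between 0.0761 and 0.119.

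Basal keratinocyte and adhesion genes rose in 12 of 25 tested members and fell in 2, with a median of 0.38. Krt14, a basal keratin, was at 12526, 12981 and 8496 cpm against 1159, 822 and 1309 cpm (3.37 ± 0.33, edgeR adjusted p = 0.0008). Krt5, the usual partner of Krt14, was at 1904, 2077 and 1730 cpm against 1842, 1222 and 2827 cpm and overlapped between groups (-0.04 ± 0.32, edgeR adjusted p = 0.94). The desmosomal genes Dsg3 (1.77), Pkp3 (1.37) and Pkp1 (1.45) and the integrin Itga3 (1.54) rose. Krt15, a keratin of resting basal and hair follicle stem cells, fell by 2.08 ± 0.23, and the hemidesmosomal linker Dst fell by 0.85.

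One envelope gene turned on a single control library. Trichohyalin, Tchh, a protein of the inner root sheath of the hair and of the granular layer, was at 5774, 6758 and 11274 cpm with MC903 and at 460, 278 and 11403 cpm with ethanol. Its change was 0.97 ± 1.20 (edgeR adjusted p = 0.63), and 4.45 (edgeR adjusted p = 0.00097) without ethanol replicate 3, the control library with the most hair shaft RNA. Of the 24 hair shaft genes 0 were called by edgeR or by DESeq2, and 0 were at an unadjusted p under 0.05.

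**Figure D2:**
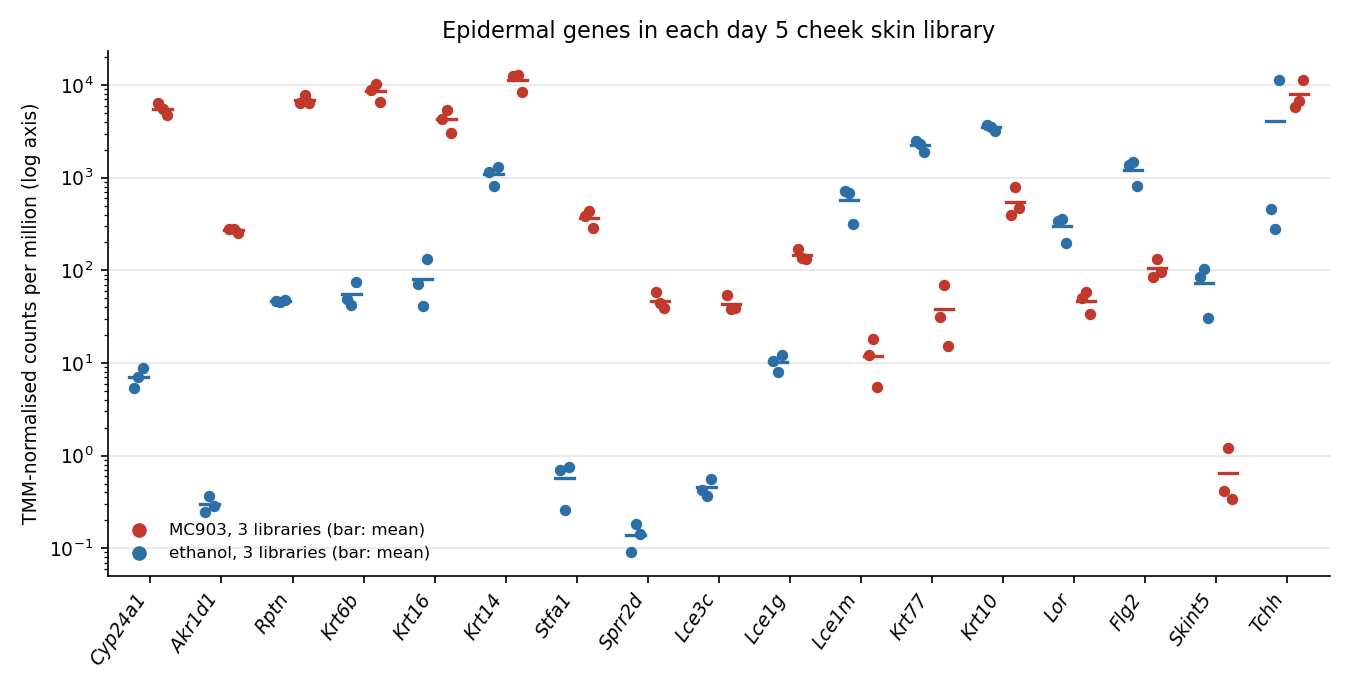
TMM-scaled cpm (log axis) of 17 epidermal genes in each day 5 library, MC903 in red and ethanol in blue, with a bar at each group's mean. The groups are apart for every gene shown but Tchh, where ethanol replicate 3 (11403 cpm) lies with the MC903 libraries.

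Genes for barrier lipids rose more often than they fell. Of 32 tested members of the barrier lipid list, 16 were higher and 3 lower, with a median of 0.61. The cholesterol sulfotransferase Sult2b1 was at 136, 148 and 131.4 cpm against 25.9, 26.8 and 25.5 cpm (2.41 ± 0.15, edgeR adjusted p = 0.0001). Rises were also seen for the ceramide synthesis genes Degs2 (2.96), Ugcg (1.75) and Smpd3 (1.69) and for Pnpla1 (1.45), which makes acylceramides. The lipase Lipn (-2.24), the lipoxygenase Alox12e (-2.29) and Dgat2 (-1.13), an enzyme of triglyceride synthesis, fell.

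Of 25 tested genes for cholesterol and fatty acid synthesis, 11 were higher and 1 lower, with a median of 0.50, and without ethanol replicate 3, 12 were higher and 3 lower. The changes were small: the squalene synthase Fdft1 rose by 1.11 ± 0.15 and the squalene epoxidase Sqle by 1.04 ± 0.17. Srebf1, which encodes a regulator of fatty acid synthesis, fell by 0.60. Scd1 (-1.33, edgeR adjusted p = 0.051) and Fasn (-0.92, edgeR adjusted p = 0.059), fatty acid genes with high levels in sebaceous and fat cells, did not pass, and both did without ethanol replicate 3.

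Zinc handling genes were higher in 7 of 13 tested members and lower in 0, with a median of 1.22. The zinc importer Slc39a4 was at 10.3, 9.15 and 8.91 cpm against 0.764, 0.405 and 0.707 cpm (3.90 ± 0.30, edgeR adjusted p = 0.00027). The metallothioneins, small proteins that bind zinc and copper, rose less, Mt1 by 1.36 ± 0.25 and Mt2 by 1.22 ± 0.22. The transporters Slc30a2 (2.26), Slc39a14 (1.30) and Slc39a6 (1.15) were also higher.

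Retinoid metabolism moved in both directions, with 9 of 24 tested genes higher and 4 lower (median 0.77, or 0.53 with genes absent from 1 group at their bound). Lrat, the enzyme that stores retinol as esters, was at 248, 240 and 309 cpm against 5.07, 7.52 and 10.2 cpm (5.13 ± 0.31, edgeR adjusted p = 9.4e-05). The binding proteins Rbp2 (4.99) and Crabp2 (3.79) and the retinoic acid hydroxylase Cyp26b1 (2.51) rose. Cyp26a1, a hydroxylase with the same role that was singled out after its values were seen, had 13, 16 and 7 reads with MC903 and 0 in every control, at least 3.80-fold higher against a floor of 3 reads per library. The oxidising enzymes Adh7 (-1.65) and Aldh1a1 (-1.45), the plasma retinol carrier Rbp4 (-2.39) and the receptor Rarb (-1.27) fell. Without ethanol replicate 3, 11 were higher and 5 lower.

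Kallikreins, the serine proteases that cut corneodesmosomes and shed the outer epidermis, were higher in 9 of 13 tested members, with a median of 3.38, or 3.04 with Klk4, whose controls held no read, at its lower bound. Klk6 was at 747, 667 and 465 cpm against 8.67, 9.47 and 15 cpm (5.82 ± 0.34, edgeR adjusted p = 8.2e-05). Klk13 rose by 6.47 ± 0.50, Klk9 by 5.23 ± 0.32, Klk12 by 4.38 ± 0.31, Klk8 by 3.38 ± 0.20 and Klk7, the chymotrypsin-like member, by 3.04 ± 0.22. Klk5 did not pass at 0.55 (edgeR adjusted p = 0.077). Klk1, the tissue kallikrein of salivary glands, fell by 5.57 ± 1.14, and its levels (0.264, 0.0343 and 3.54 cpm against 44.3, 43.2 and 93.4 cpm) were highest in the library with the most salivary RNA in each group.

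Protease inhibitors were higher in 10 of 26 tested members and lower in 3, with a median of 0.85. Spink5, the inhibitor of kallikreins that is lost in Netherton syndrome, was at 2883, 2891 and 2399 cpm against 786, 742 and 504 cpm (2.01 ± 0.25, edgeR adjusted p = 0.0025). Slpi, a secreted leukocyte protease inhibitor, rose by 6.996 ± 0.47 and the stefin relative Csta1 by 5.07 ± 0.33. Spink12 was at 4.48, 4.21 and 4.26 cpm against 0.0916, 0.0369 and 0 cpm, a ratio of 87.5 (33.9 to 323). Serpinb7 (-2.79 ± 0.28) and Wfdc21 (-2.49 ± 0.35) fell. Wfdc12, a whey acidic protein inhibitor, was at 79, 115.8 and 68.2 cpm against 179, 179 and 625 cpm and fell by 1.90 ± 0.51 (edgeR adjusted p = 0.042), or by 1.005 without ethanol replicate 3 (edgeR adjusted p = 0.022). Without any 1 of the MC903 libraries the call was lost (edgeR adjusted p of 0.0836 to 0.123).

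The count of cell cycle genes depended on a single control library. Of 40 tested members, 17 were higher and 0 lower (median 0.81), and without ethanol replicate 3 the count was 32 higher (median 1.19). The replication helicase subunit Mcm5 was at 75.5, 73.9 and 63.4 cpm against 19.9, 17.7 and 26.6 cpm (1.73 ± 0.19, edgeR adjusted p = 0.0015). Birc5, which acts at the mitotic spindle, rose by 1.57, the mitotic kinase Plk1 by 1.56, the anaphase activator Cdc20 by 1.41 and the nucleotide reductase subunit Rrm2 by 1.22. Mki67, the proliferation marker Ki-67, was at 134, 194 and 198 cpm against 67.3, 95.7 and 212 cpm. Its change did not pass (0.49, edgeR adjusted p = 0.46), and it did without ethanol replicate 3 (1.13, edgeR adjusted p = 0.018), the control that also held the most hair shaft RNA.

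**Figure D3:**
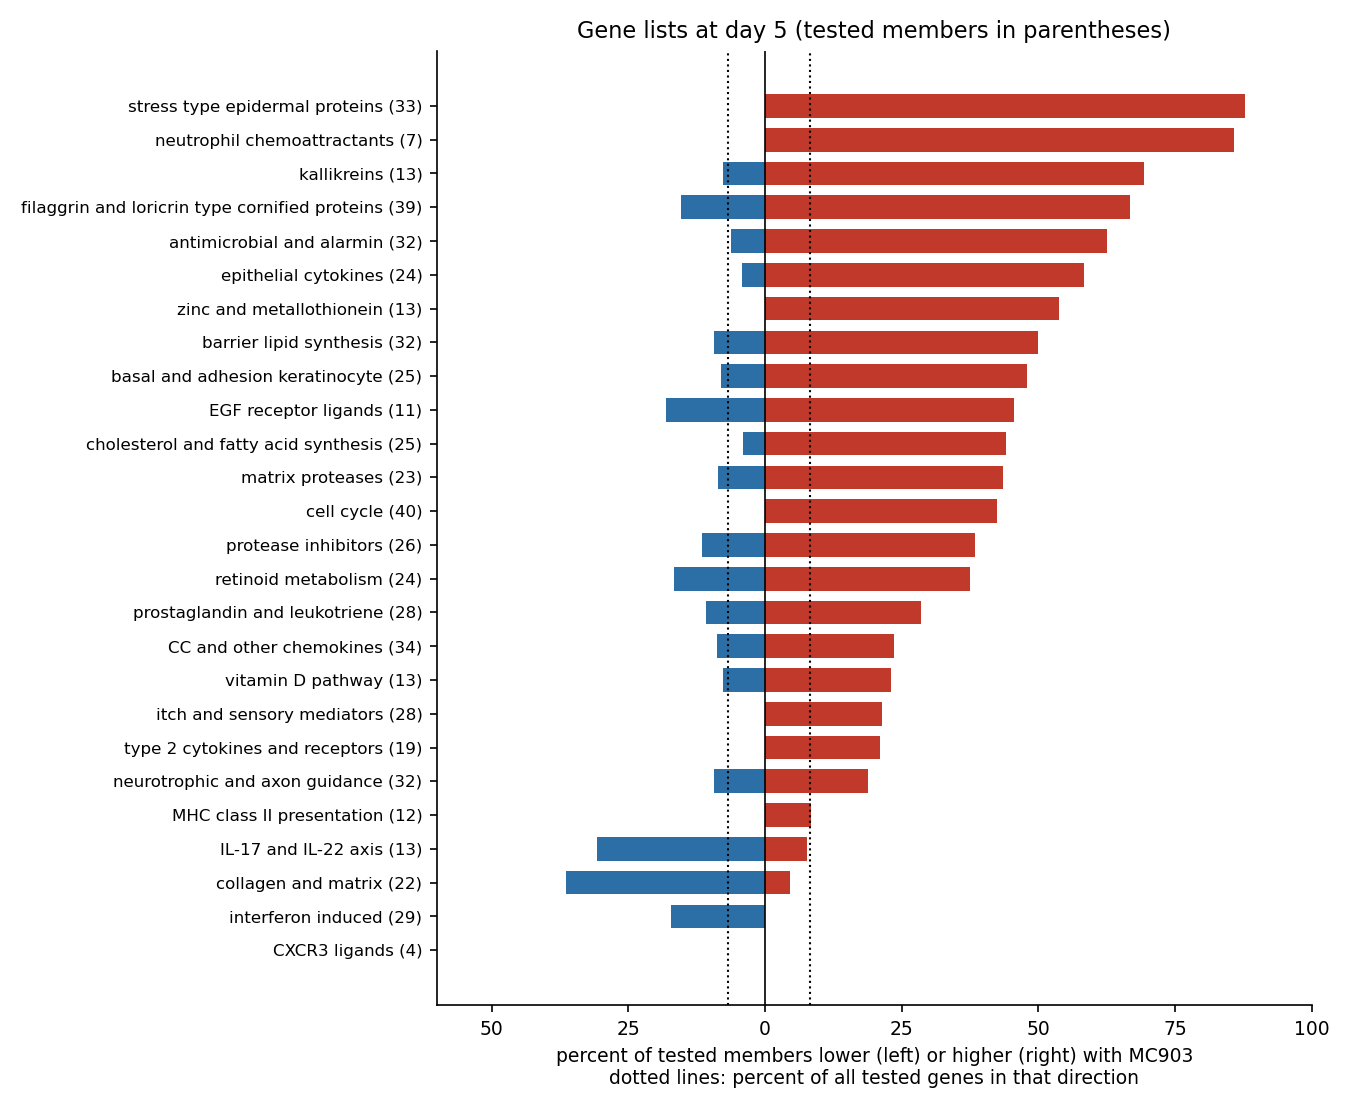
Percent of the tested members of each of 26 gene lists that were called higher (right, red) or lower (left, blue) with MC903 at day 5, with the number tested in parentheses. The dotted lines mark the share of all tested genes called in that direction (8.15% higher, 6.78% lower). Stress proteins, neutrophil chemoattractants, kallikreins and cornified proteins reach furthest to the right, and the collagen list and the IL-17 and IL-22 list reach furthest to the left.

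Epithelial cytokines were higher in 14 of 24 tested members and lower in 1, with a median of 2.35. Tslp, the keratinocyte cytokine that starts type 2 inflammation, was at 158, 156 and 242 cpm with MC903 and at 2.26, 2.10 and 1.04 cpm with ethanol. Il1a, an alarm cytokine stored in keratinocytes, was at 71.5, 83.2 and 80.2 cpm against 10.3, 13 and 12.6 cpm (2.71 ± 0.17, edgeR adjusted p = 0.0001). The interleukin 36 genes Il1f8 (3.74 ± 0.24) and Il1f5 (2.28 ± 0.19), the latter an antagonist, rose, as did Tnfsf11, the ligand of RANK, which acts on osteoclasts and Langerhans cells (5.82 ± 0.45). Il24 had 164, 120 and 71 reads with MC903 and 1 read in all controls, a ratio of 351 (62.6 to 13903). Il34, the cytokine that maintains Langerhans cells, fell by 2.05 ± 0.30.

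Ligands of the epidermal growth factor receptor diverged. Of 11 tested genes of ligands and receptors, 5 were higher and 2 lower (median 0.24), or 3 lower without ethanol replicate 3. Epgn, epigen, was at 122.2, 105 and 101 cpm against 2.35, 3.10 and 3.82 cpm (5.15 ± 0.24, edgeR adjusted p = 2.4e-05), and Areg, amphiregulin, at 43.7, 37.9 and 43.1 cpm against 1.59, 2.54 and 2.45 cpm (4.25 ± 0.23, edgeR adjusted p = 6.5e-05). Nrg1 (3.16), Hbegf (2.72) and Tgfa (0.83) also rose. Btc, betacellulin, was at 4.86, 4.62 and 6.20 cpm against 48.5, 52.2 and 15.7 cpm and fell by 2.89 ± 0.43, and Egf fell by 2.41 ± 0.43. Salivary gland sums were also lower in every MC903 library, and the part of salivary RNA in the Egf value was not tested. The receptor Egfr did not pass (-0.21, edgeR adjusted p = 0.51).

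Chemokine genes that draw neutrophils rose. The neutrophil chemoattractant list also named the receptors Cxcr1 and Cxcr2, and Cxcr2 is on the neutrophil marker list too. Of 7 tested members, 6 were higher (median 2.15), and Pf4, a platelet chemokine, was not (-0.08, edgeR adjusted p = 0.89). Cxcl5 had 580, 305 and 158 reads with MC903 and 2 reads in all controls, a ratio of 516 (142 to 4263). Ppbp, the precursor of another CXCR2 ligand, rose by 1.97. The Ppbp call was lost without MC903 replicate 1 or 2 or ethanol replicate 1 (edgeR adjusted p of 0.0583 to 0.0717). Of 34 tested CC and other chemokine genes, 8 were higher and 3 lower (median 0.20). Ccl3 (3.21 ± 0.45) and Ccl4 (3.23 ± 0.45), which attract monocytes, and their receptor Ccr1 (2.20 ± 0.40) rose, as did Cxcl13 (1.90). Ccl27a, a keratinocyte chemokine for skin T cells, was at 4.03, 3.90 and 4.11 cpm against 25.3, 16.8 and 13.6 cpm and fell by 2.21 ± 0.26. Ccr4, a receptor of skin-homing T cells, fell by 3.15 ± 0.45.

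Antimicrobial and alarmin genes were higher in 20 of 32 tested members and lower in 2, with a median of 1.79, or 1.51 with genes absent from the controls at their lower bound. Saa3, an acute-phase protein, was at 499, 253 and 161 cpm against 0.977, 0.258 and 0.424 cpm (9.05 ± 0.69, edgeR adjusted p = 0.00027). The beta-defensin Defb14 was at 78.3, 53 and 46.8 cpm against 0.458, 0.663 and 0.707 cpm (6.61 ± 0.31). Saa1 rose by 7.08, the chitinase-like Chil1 by 6.44 and S100a8, a subunit of calprotectin, by 5.51. Defb8 fell, from 45.8, 51.8 and 35.5 cpm to 0.565, 1.16 and 2.55 cpm (-4.96 ± 0.49, edgeR adjusted p = 0.00092). Lyz1 fell by 0.99.

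Of 28 tested prostaglandin and leukotriene genes, 8 were higher and 3 lower, with a median of 0.19, and without ethanol replicate 3, 9 were higher and 4 lower. Ptgs2, the inducible cyclooxygenase, was at 341, 435 and 282 cpm with MC903 and at 1.80, 1.51 and 1.51 cpm with ethanol (7.77 ± 0.27, edgeR adjusted p = 1.2e-05). Ptges, the synthase of prostaglandin E, was at 323, 275 and 226 cpm against 30.2, 32.2 and 25.5 cpm (3.23 ± 0.20), and the epidermal phospholipases Pla2g4e (2.63 ± 0.15) and Pla2g2f (1.12 ± 0.17) rose. Hpgd, which degrades prostaglandins, fell by 1.41 ± 0.25, and so did the receptors Ptger3 (-1.57) and Ptger4 (-0.72), the latter a call lost without any 1 library but MC903 replicate 3 (edgeR adjusted p of 0.0538 to 0.122). The leukotriene B4 receptor gene Ltb4r1 rose by 1.75 ± 0.22.

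Of 19 tested type 2 cytokine and receptor genes, 4 were higher and 0 lower, with a median of 0.38, and without ethanol replicate 3, 7 were higher and 1 lower. Il4ra, the shared receptor chain of IL-4 and IL-13, was at 163, 133.1 and 97.1 cpm against 25.6, 20.5 and 17.2 cpm (2.63 ± 0.25, edgeR adjusted p = 0.00068). The IL-13 receptors Il13ra2 (1.82) and Il13ra1 (0.95) and the feedback inhibitor Socs3 (1.15) rose. Il4 itself was at 1.58, 1.30 and 0.951 cpm against 1.07, 2.21 and 0.660 cpm and overlapped. Il31ra, a receptor chain of the itch cytokine IL-31, was at 15, 9.83 and 10.4 cpm against 40.2, 40.5 and 13.4 cpm (-1.42, edgeR adjusted p = 0.051), and fell without ethanol replicate 3 (-1.76, edgeR adjusted p = 0.0019).

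The IL-17 and IL-22 list held 1 member that rose and 4 that fell among 13 tested (median -0.33), or 2 and 4 without ethanol replicate 3. Il22ra2, a soluble receptor that traps IL-22, was at 1.28, 1.20 and 0.419 cpm against 30.3, 26.2 and 9.38 cpm (-4.50 ± 0.56, edgeR adjusted p = 0.0024). The receptor chains Il20rb (-1.26) and Il20ra (-1.16) fell, while Stat3 rose by 0.75. Il20rb lost the call without any 1 MC903 library or ethanol replicate 2 (edgeR adjusted p of 0.0541 to 0.0703). Il20ra lost it without MC903 replicate 1 or 3 or ethanol replicate 1 or 2 (edgeR adjusted p of 0.0709 to 0.0851). Stat3 lost it without replicate 1 or 2 of either group (edgeR adjusted p of 0.0696 to 0.0925).

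Interferon-induced genes did not rise at day 5. Of 29 tested, 0 were higher and 5 lower, with a median of -0.33, against a median of -0.03 over all genes. The guanylate-binding proteins Gbp3 (-0.92 ± 0.17) and Gbp2 (-0.96 ± 0.23), the deconjugating protease Usp18 (-1.22 ± 0.24), the RNA sensor Ifih1 (-0.70 ± 0.14) and Ifit3b (-1.06 ± 0.29) fell. The Ifit3b call was lost without any 1 library but ethanol replicate 2 (edgeR adjusted p of 0.0546 to 0.141). Gbp2 lost it without MC903 replicate 1 or 3 or ethanol replicate 1 or 2 (edgeR adjusted p of 0.0708 to 0.0911). Ifih1 lost it without any 1 MC903 library or ethanol replicate 2 (edgeR adjusted p of 0.0525 to 0.0649). Usp18 lost it without MC903 replicate 1 or 2 or ethanol replicate 1, and Gbp3 without MC903 replicate 2 (edgeR adjusted p of 0.0505 to 0.0597). At an unadjusted edgeR p under 0.05, and by DESeq2, 0 were higher too. Of 4 tested CXCR3 ligand and receptor genes, 0 were called by edgeR (median -0.79), with 2 lower at an unadjusted p under 0.05 and 1 lower by DESeq2, and Cxcl9 was at 1.77, 0.548 and 0.533 cpm against 2.93, 2.76 and 3.30 cpm (-1.66, edgeR adjusted p = 0.056). For antigen presentation on MHC class II, 1 of 12 was higher, the costimulatory ligand Cd80 (1.57 ± 0.40), a share of 8.33% beside the background of 8.15%.

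Markers of blood-derived cells gave small counts, and many of these genes stood at a few cpm. Of 13 tested neutrophil markers, 6 were higher and 1 lower (median 1.21), or 5 and 0 without ethanol replicate 3. Those that rose included the collagenase Mmp8 (6.41 ± 0.49), the formyl peptide receptor Fpr2 (2.99 ± 0.52) and the growth factor receptor Csf3r (1.86 ± 0.33). Mpo was the 1 lower (-2.59 ± 0.72, edgeR adjusted p = 0.047), and it is not among the 216 genes counted above. The summed level of the list was 67.19, 88.48 and 44.98 cpm with MC903 and 95.23, 37.01 and 159.9 cpm with ethanol. The groups thus overlapped. Of these sums, Ltf, not called, made up 0.528, 35.6 and 0.837 cpm with MC903 and 83.6, 25.8 and 152.8 cpm with ethanol. Stfa2l1 is on this list and on the stress protein list. Ly6g, the surface marker by which neutrophils are often sorted, was at 0.0377, 0.308 and 0 cpm against 0.275, 0.111 and 0.707 cpm and was not called (edgeR adjusted p = 0.4). It was singled out after its values were seen.

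Basophil markers rose in 3 of 6 tested members. Mcpt8, the basophil protease, had 267, 95 and 92 reads with MC903 and 1 read in all controls, a ratio of 449 (80.2 to 17769), and the IgE receptor chain Fcer1a was at 5.01, 2.09 and 3.35 cpm against 0.580, 0.442 and 0.519 cpm (2.75 ± 0.40). Hdc, which makes histamine, rose by 2.99 ± 0.56. Mast cell markers did not follow: Cpa3 was at 56.5, 56.3 and 33.9 cpm against 51.2, 39.3 and 33.4 cpm and overlapped, and 0 of 8 were higher while 1, the receptor Mrgprb2, was lower (-3.13 ± 0.62).

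Of 6 tested eosinophil markers, 2 were lower and 4 were not called, and 3 were lower without ethanol replicate 3. Ear2, a ribonuclease gene, was at 3.43, 1.85 and 3.54 cpm against 23.7, 18.9 and 20.5 cpm (-2.84 ± 0.28, edgeR adjusted p = 0.00087), and Ear1 fell by 1.97, a call lost without MC903 replicate 1 or 2 or ethanol replicate 1 (edgeR adjusted p of 0.0722 to 0.0793). These ribonucleases are also made by macrophages. Epx, the peroxidase that defines eosinophils, also singled out after its values were seen, had no read in any of the 6 libraries, and Siglecf did not pass (-1.85, edgeR adjusted p = 0.17). The summed level of the eosinophil list was 4.90 to 7.27 cpm with MC903 and 25.4 to 36.3 cpm with ethanol, of which Ear2 made up 18.9 to 23.7 cpm.

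Among macrophage genes, those of alternative activation diverged. Arg1, arginase, which keratinocytes also make, was at 156, 159 and 121.2 cpm against 44.8, 39.6 and 37.1 cpm (1.85 ± 0.18), and Chil3 rose by 3.79 ± 0.30. Retnla was at 12, 19.1 and 6.81 cpm against 190, 158 and 74.2 cpm and fell by 3.47 ± 0.47. Adipocyte marker sums were also lower with MC903 (452 to 609 cpm against 707 to 1883 cpm), and their part in the Retnla value was not tested. Ccl24 fell by 1.55 ± 0.32, a call lost without MC903 replicate 1 or ethanol replicate 1 or 2 (edgeR adjusted p of 0.0533 to 0.0584). Of 11 general macrophage markers 1, Ms4a7, was higher (1.70 ± 0.37). Of 10 Langerhans and dendritic cell markers, 7 had a fold change below 0, with a median of -1.10, and 2 were higher and 1 lower. Leaving out ethanol replicate 3 gave 2 higher and 4 lower, and DESeq2 called 3 higher and 4 lower. Cd24a (1.53) and Itgax (1.65) were higher, and Cd207, langerin, which marks Langerhans cells, was lower (-2.06 ± 0.42), a call that needed all 6 libraries or the 5 without ethanol replicate 3 (edgeR adjusted p of 0.0545 to 0.0569 without any other). Cd24a is also made by keratinocytes.

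T cell genes fell where they were called. Of 14 tested, 0 were higher and 3 lower. Cd3g was at 2.37, 1.71 and 2.63 cpm against 8.12, 8.29 and 10.04 cpm (-1.98 ± 0.25). The others were Cd3e (-1.70 ± 0.33) and Trdc (-1.75 ± 0.45), the constant chain of the gamma-delta T cell receptor. The Cd3e call was lost without MC903 replicate 2 or ethanol replicate 1 or 2 (edgeR adjusted p of 0.0501 to 0.0632). That of Trdc was lost without MC903 replicate 2 or 3 or ethanol replicate 1 or 2 (edgeR adjusted p of 0.0685 to 0.13). Trbc2, of the alpha-beta receptor, was at 12.2, 8.77 and 9.55 cpm against 8.61, 8.74 and 3.77 cpm and was not called (0.53, edgeR adjusted p = 0.32). The receptor chains used by dendritic epidermal T cells, the gamma-delta cells that reside in mouse epidermis, were singled out after their values were seen. All 4 were lower, among them Trdv4 (0.301, 0.480 and 0.152 cpm against 2.32, 2.43 and 1.74 cpm, -2.77 ± 0.44) and Tcrg-C1 (-1.95 ± 0.36). Without ethanol replicate 3 the count was 3 of 4. Of 9 natural killer and innate lymphoid markers, Klrb1c (-2.01) and the pore-forming Prf1 (-3.14) were lower, and 3 were without ethanol replicate 3. Klrb1c lost the call without MC903 replicate 1 or 3 or ethanol replicate 1 (edgeR adjusted p of 0.0537 to 0.0691). Prf1 lost it without MC903 replicate 2 or ethanol replicate 1 or 2 (edgeR adjusted p of 0.0752 to 0.084).

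The Skint genes encode membrane proteins of keratinocytes and thymic epithelium, of which Skint1 is required for the selection of dendritic epidermal T cells. All 11 Skint genes on chromosome 4 were lower, with a median of -2.78, and all 11 remained so without ethanol replicate 3, whereas Skint3 and Skint8 each lost the call without any 1 of 4 other libraries (edgeR adjusted p of 0.0815 to 0.0933 for Skint3 and of 0.0706 to 0.0929 for Skint8). Skint5 (chromosome 4, 113477891 to 113999503) was at 0.415, 1.20 and 0.343 cpm with MC903 and at 85.4, 105 and 30.5 cpm with ethanol (-6.79 ± 0.66, edgeR adjusted p = 0.00083). Skint6, whose promoter differs from that of Skint5 at the capitals above, was at 0.603, 3.77 and 0.761 cpm against 50.9, 61.7 and 19.9 cpm (-4.68 ± 0.76). Skint3, at -1.42 ± 0.34, and Skint8, at -1.67, fell least. The groups did not overlap for any Skint gene.

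A cluster of Mrgprb genes and pseudogenes on chromosome 7, relatives of the itch receptors of mast cells and neurons, fell with them. Of 7 tested, 4 were lower. Mrgprb3 was at 0.226, 0.103 and 0.114 cpm against 16.5, 16.3 and 6.79 cpm (-6.45 ± 0.51, edgeR adjusted p = 0.00032), and the pseudogenes Mrgprb11-ps (-7.00 ± 0.62) and Mrgprb9-ps (-6.62 ± 0.88) fell as steeply. Mrgprb1 was not called (-0.31). F830045P16Rik (-5.92 ± 0.46), the serpin Serpina3b (-4.62 ± 0.34), Fcgbp, an IgG Fc-binding protein of mucus (-3.14 ± 0.22), and the membrane traffic gene Rab11fip4 (-2.49 ± 0.19) were among the genes with the largest or most certain falls.

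Gasdermin C genes on chromosome 15, which encode pore-forming proteins of epithelia, moved the other way. All 4 were higher, with a median of 6.45. Gsdmc was at 71, 81 and 52.5 cpm against 0.336, 0.332 and 0.519 cpm (7.44 ± 0.30, edgeR adjusted p = 1.3e-05). Of 21 major urinary protein genes, which are near-identical copies, 17 were lower (median -2.49). Summed over the family, MC903 replicates 1, 2 and 3 held 104.6, 2144.4 and 64.9 cpm. Ethanol replicates 1, 2 and 3 held 2144.1, 2712 and 17530 cpm, so the sums overlapped and ethanol replicate 3 was far the highest. Their reads cannot be assigned to a single copy with confidence.

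The dermal matrix fell in part while its proteases rose. Of 22 tested collagen and matrix genes, 1 was higher and 8 lower, with a median of -0.46. Col1a1 was at 2566, 1978 and 2175 cpm against 8990, 11124 and 5072 cpm (-1.91 ± 0.34, edgeR adjusted p = 0.01), and Col1a2 fell by 2.09 ± 0.39. Both calls were lost without MC903 replicate 2 or 3, for Col1a1 at edgeR adjusted p of 0.0504 and 0.0517. Col7a1, the anchoring fibril collagen, fell by 1.04 and Sparc by 1.52. Col3a1 did not pass (-1.03, edgeR adjusted p = 0.085), and did without ethanol replicate 3. Tenascin C, Tnc, a matrix protein of wounds, was the member that rose, at 1646, 735 and 670 cpm against 33.7, 31.4 and 82.4 cpm (4.37 ± 0.54, edgeR adjusted p = 0.0024).

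Among fibroblast markers, 1 of 7 was lower, Cd34 (-1.22 ± 0.30), and 4 were without ethanol replicate 3. Of 23 tested matrix proteases and inhibitors, 10 were higher and 2 lower (median 1.14, or 0.77 with genes absent from the controls at their bound). Mmp13, a collagenase, was at 85.4, 72.9 and 88.6 cpm against 0.672, 0.442 and 0.424 cpm (7.29 ± 0.25, edgeR adjusted p = 1.2e-05). The stromelysins Mmp10 (3.01) and Mmp3 (2.85) rose, with the inhibitor Timp1 (3.68), and the inhibitors Timp3 (-1.01) and Timp2 (-1.03) fell.

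Genes that act on nerves were called in modest numbers. Of 32 tested neurotrophic and axon guidance genes, 6 were higher and 3 lower (median 0.18). Without ethanol replicate 3, 9 were higher and 4 lower. The ephrin receptor Epha2 rose by 1.98 ± 0.17, and the semaphorins Sema3e (1.41) and Sema4d (1.18) rose. Sema3d was at 4.75, 8.70 and 11.8 cpm against 78.5, 86.7 and 47.3 cpm (-3.07 ± 0.37), and Sema3b (-1.70) and Sema3c (-1.16) fell.

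Of 28 itch and sensory mediator genes, 6 were higher and 0 lower (median 0.30), or 6 and 2 without ethanol replicate 3. The warmth-gated channel Trpv3 of keratinocytes was at 80.5, 90.1 and 116.04 cpm against 28.5, 26.5 and 22.2 cpm (1.89 ± 0.19, edgeR adjusted p = 0.0011). Cathepsin L, Ctsl (2.24), the monoamine oxidase Maoa (2.17), Hdc and the neuropeptide gene Nts (2.42) rose, and Tph1, which makes serotonin, did too (1.32), a call lost when any 1 of the 6 libraries was left out (edgeR adjusted p of 0.0579 to 0.118). Penk (-0.81, edgeR adjusted p = 0.065) and the protease receptor F2rl1 (-0.44, edgeR adjusted p = 0.31) did not pass.

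Of 20 sensory neuron markers, 1 was higher and 2 lower. Tubb3, the neuronal beta-tubulin, was at 48.5, 42.7 and 37.3 cpm against 2.84, 3.65 and 6.18 cpm (3.35 ± 0.30, edgeR adjusted p = 0.00059), while Th (-1.55) and Isl1 (-0.99) fell and the other 17 were not called. The Th and Isl1 calls were lost without any 1 library but ethanol replicate 3 (edgeR adjusted p of 0.0644 to 0.104 for Th and of 0.0932 to 0.142 for Isl1). Nefm, a neurofilament, overlapped between groups (-0.18, edgeR adjusted p = 0.8). Of 9 Schwann cell markers, 3 were lower, among them Sox10 (-2.18 ± 0.46), and 7 were lower without ethanol replicate 3. Sox10 is also made by salivary glands, and its highest level, 21.3 cpm, was in ethanol replicate 3.

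**Figure D4:**
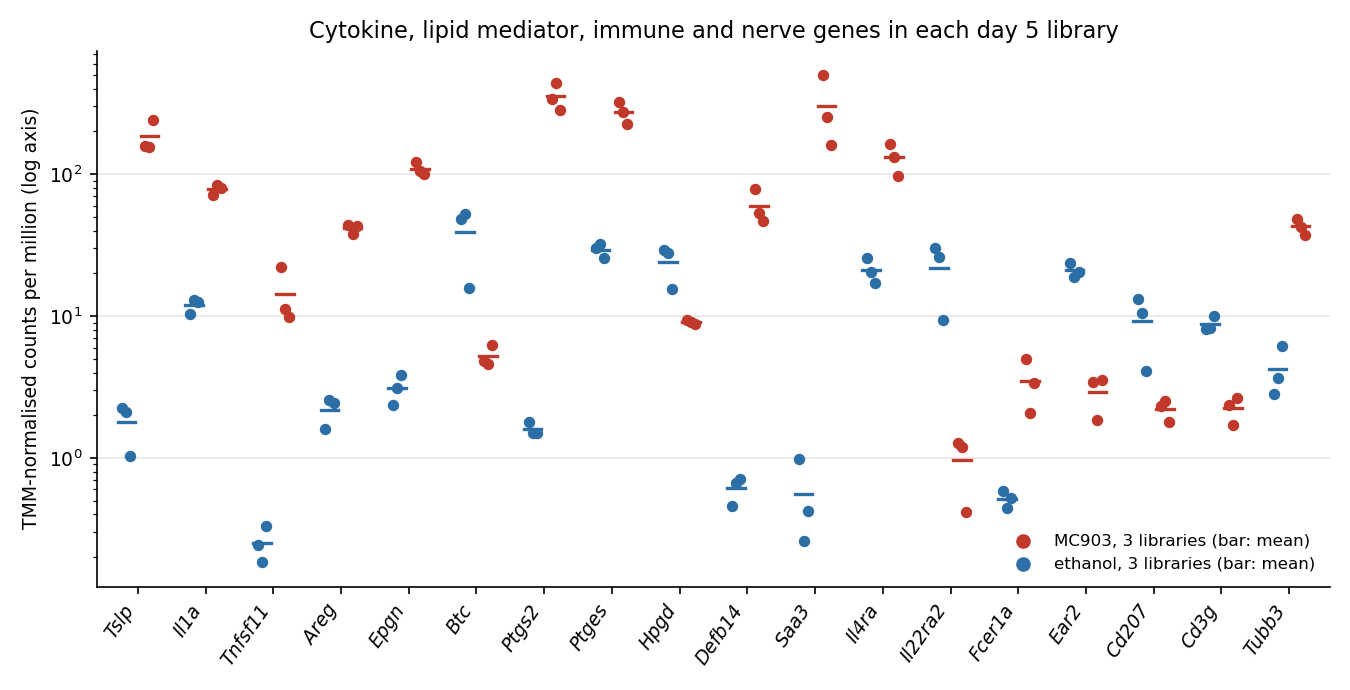
TMM-scaled cpm (log axis) of 18 cytokine, lipid mediator, immune and nerve genes in each day 5 library, MC903 in red and ethanol in blue, with a bar at each group's mean. The groups are apart for every gene shown; Btc, Hpgd, Il22ra2, Ear2, Cd207 and Cd3g are lower with MC903 and the others higher.

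Tissues below the skin and its appendages also differed. Of 14 skeletal muscle genes, 9 were lower (median -1.26) and all 14 lay lower in every MC903 library, and 7 were called without ethanol replicate 3. Of 9 adipocyte genes, 7 were lower (median -1.85), among them Cidec (-1.96 ± 0.17), the hormone gene Lep (-2.40 ± 0.47) and Adipoq (-1.85 ± 0.44), and all 9 were without ethanol replicate 3. Of 9 salivary gland genes, 5 were lower (median -4.69), and 4 without it, and all 9 lay lower in every MC903 library. For these tissues the amount in a library could not be separated from the treatment. Of 10 sebaceous gland genes, 1 was lower, Scd3 (-2.03 ± 0.25), and without ethanol replicate 3, 1 was higher and 2 lower. Of 9 hair follicle stem cell genes, 5 were lower, among them Krt15 and Lgr5 (-0.60 ± 0.16), and 3 without ethanol replicate 3. The Lgr5 call was lost without any 1 library but ethanol replicate 1 (edgeR adjusted p of 0.056 to 0.145). The 8 endothelial, 7 melanocyte and 6 erythrocyte genes gave 0 edgeR calls. At an unadjusted p under 0.05 these lists had 3, 0 and 4 genes, and DESeq2 called 1, 0 and 3.

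The day 5 effect was set beside those of days 1, 2 and 8, which had 8, 5 and 11 libraries of uninjected wild-type skin, by a test of the difference between 2 days' effects. The day 8 libraries were split into 2 cohorts by their titles, with or without a bracketed name, and the cohort was a term of that fit. The labels shown do not name a cohort. The effect differed between days 8 and 5 for 441 of 27187 genes (1.62%), 192 of them more positive at day 8 (0.706%) and 249 more negative (0.916%). Between days 5 and 2 it differed for 60 of 26149 genes (0.229%), 51 more positive at day 5 (0.195%) and 9 more negative (0.0344%). Between days 5 and 1 it differed for 2844 of 26320 genes (10.8%), 1917 more positive at day 5 (7.28%) and 927 more negative (3.52%). Each test rests on the same 3 MC903 and 3 ethanol libraries of day 5, so the 3 tests are not independent of each other. The day 2 controls were 2 libraries. At day 2 alone edgeR called 0 of 24580 genes, with 1190 at an unadjusted p under 0.05, and 60 genes without MC903 replicate 3 of that day.

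Several effects were larger at day 5 than at day 8. Rptn rose by 7.20 at day 5 and by 4.43 at day 8, Areg by 4.25 and 2.02, Gprc5a, an orphan receptor of epithelia, by 5.84 and 1.15, and Fxyd4, a regulator of the sodium pump, by 6.27 and 1.83. Gprc5a was at 85.5, 69.4 and 75.5 cpm at day 5 against 0.886, 0.811 and 2.40 cpm, and Fxyd4 at 21.3, 21.9 and 27.1 cpm against 0.275, 0.258 and 0.377 cpm. The unnamed gene Gm37087 rose by 4.49 at day 5 and did not pass at day 8 (0.36, edgeR adjusted p = 0.33). Cyp24a1, taken with Akr1d1 after their values were seen, rose by 8.38, 9.61 and 7.24 on days 1, 5 and 8, and Akr1d1 by 5.07, 9.81 and 6.66. At day 2 their fold changes, 8.01 for Cyp24a1 (edgeR adjusted p = 0.17) and 7.92 for Akr1d1 (edgeR adjusted p = 0.11), did not pass the test. The difference between days 8 and 5 passed the test for Cyp24a1 (edgeR adjusted p = 0.017, or 0.0563 without ethanol replicate 1) and Akr1d1 (edgeR adjusted p = 0.0062).

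Other effects were weaker or opposite at day 5. Wfdc12 fell at day 5 (-1.90) and rose at day 8 (6.55), and the secretoglobin genes Scgb1b27 (-4.56 and 4.75) and Scgb2b27 (-3.88 and 2.63) and the potassium channel Kcnn4 (-3.43 and 1.18) changed in the same way. Scgb1b27 was at 0.678, 2.09 and 2.70 cpm at day 5 against 66.4, 16 and 46.9 cpm, and Kcnn4 at 3.28, 3.77 and 3.96 cpm against 22.7, 22.1 and 74.5 cpm. Secretoglobins and Kcnn4 are made by salivary glands, whose RNA differed between the groups at day 5. Skint1 was at 3.32, 4.59 and 3.96 cpm against 14.5, 16.7 and 14.2 cpm at day 5 (-1.93 ± 0.20) and was not called at day 8 (-0.12, edgeR adjusted p = 0.58), whereas Skint5 fell by 6.79 and 6.14 on the 2 days. Of the 29 interferon-induced genes, 9 had a more positive effect at day 8 than at day 5, where 0.706% of all genes did, among them Gbp2 (-0.96 at day 5, 3.35 at day 8), chosen after its values were seen. The Gbp2 difference passed with all libraries and without ethanol replicate 3, and its edgeR adjusted p was between 0.0739 and 0.113 without any other day 5 library.

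The effect on the Lce1 genes differed between days 2 and 5: 11 of 14 had a more positive effect at day 5, against 0.195% of all genes. The fold change of Lce1g was -0.63 at day 2 and 3.84 at day 5, that of Lce1e 0.17 and 3.47, and that of Lce1k -1.79 and 3.51, and the day 2 values did not pass (edgeR adjusted p of 0.80 to 0.97). Defb8 had 1.02 and -4.96 and Skint1 0.68 and -1.93, also not called at day 2 (edgeR adjusted p = 0.90 for both), the Skint1 difference at edgeR adjusted p of 0.0623 to 0.0888 without any day 5 library but ethanol replicate 3. Between days 1 and 5, the 5 most certain rises included Rptn (0.09 and 7.20), Il1a (0.20 and 2.71) and Ptprz1, a receptor phosphatase that was at 281, 319 and 308 cpm at day 5 against 10.1, 10.6 and 7.21 cpm (1.86 and 5.03), and the most certain falls Skint5 (-0.50 and -6.79) and Krt77 (-0.62 and -5.86).

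**Figure D5:**
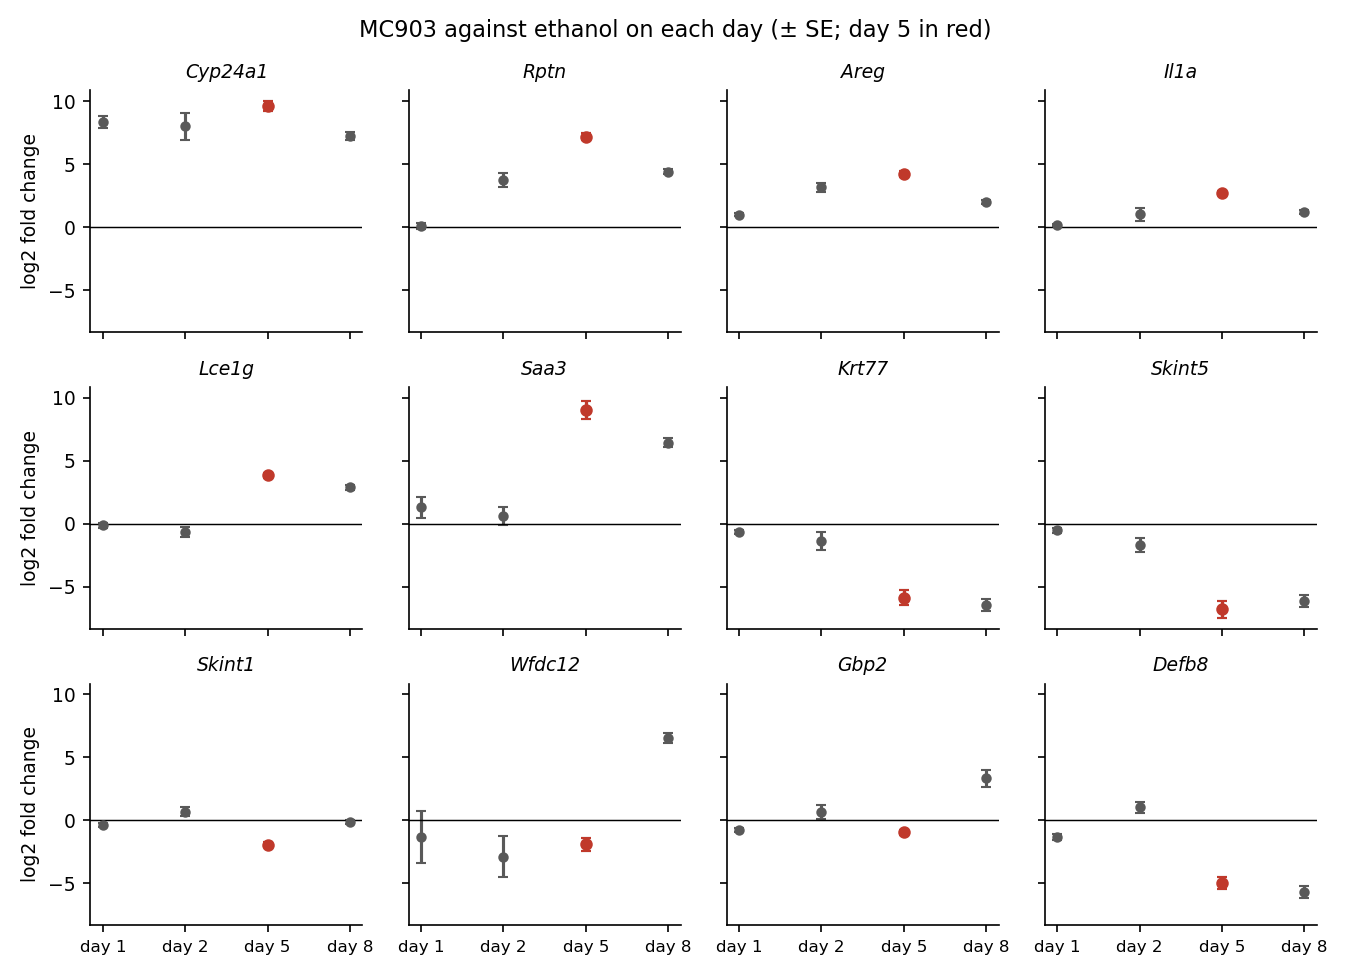
Log2 fold change of MC903 over ethanol (± SE) for 12 genes on days 1, 2, 5 and 8, with day 5 in red. Cyp24a1 is far above 0 on all 4 days, though not called at day 2, Rptn, Areg and Il1a are highest at day 5, Krt77, Skint5 and Defb8 are low at days 5 and 8, and Wfdc12 and Gbp2 are below 0 at day 5 and above 0 at day 8.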

How the data were processed

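RNA was extracted from cheek skin and sequenced as poly(A)-selected single-end 50 bp reads. Per the labels and the study's methods, the authors aligned reads to mm10 with TopHat2 and Bowtie2 and deposited raw read counts per gene from HTSeq. Reads assigned to no gene (8.09% to 13.2% per library) were left out.

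Genes with at least 10 reads over the 6 libraries were tested with edgeR 4.0.16 in R 4.3.3 (TMM scaling, quasi-likelihood F test, Benjamini-Hochberg adjustment, threshold 0.05). DESeq2 1.42.0, other scalings and filters, a replicate block, 1 fit over 4 days and leaving out each library were alternatives. The model was tested on simulated counts for 24226 genes: of 200 genes changed by a log2 fold of 2, 171 were recovered with 12 false calls, and of 200 changed by 1, 0 were. Each run changed 200 genes, whereas 14.9% of genes were called in the data. The adjustment is stricter where fewer genes change, so these shares do not give the power in the data. Of the 3617 genes called there, 1249 rose and 1196 fell by more than 2-fold, and the others changed less. Differences between days were interaction terms in fits of both days' libraries. Symbols and GRCm38 positions matched for 45143 of 46078 genes.

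Per direction, the 10 largest changes of at least 5 cpm and the 5 smallest p-values among genes whose groups were apart were named. Each list gave up to 6 called members per direction and 4 not called, and each interaction 5 genes per direction. Several disease and itch genes were named in any case. The lists and members were chosen with earlier results of these data known, and near-identical families after their values were seen. Some genes picked by this rule are not reported here.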

Additional observations from a re-analysis of the deposited data

Results flagged for a closer look

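The following MC903 effects differed between day 5 and another day by a test of the difference itself, with values on the log2 scale and edgeR's quasi-likelihood test. Between days 8 and 5, the difference (day 8 minus day 5) was -2.76 ± 0.28 for Rptn (SE, edgeR adjusted p = 0.000246), -2.22 ± 0.27 for Areg, -4.68 ± 0.54 for Gprc5a, -4.44 ± 0.56 for Fxyd4 and -4.12 ± 0.54 for Gm37087. Among vitamin D and steroid enzymes it was -2.37 ± 0.45 for Cyp24a1 and -3.16 ± 0.50 for Akr1d1.

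The effect was more positive at day 8 by 8.48 ± 0.73 for Wfdc12 (edgeR adjusted p = 5.72e-05), by 9.16 ± 0.98 for Scgb1b27, by 6.55 ± 0.80 for Scgb2b27, by 4.64 ± 0.56 for Kcnn4, by 1.82 ± 0.23 for Skint1 and by 4.32 ± 0.98 for Gbp2 (edgeR adjusted p = 0.0377). The part of salivary gland content in the values of Scgb1b27, Scgb2b27 and Kcnn4 was not tested. Of the 13 differences between days 8 and 5 given here, 3 lost the call with cohort B of day 8 alone. With cohort A alone, 1 lost it.

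Between days 5 and 2 (day 5 minus day 2), the difference was 3.32 ± 0.28 for Lce1e, 4.49 ± 0.39 for Lce1g and 5.33 ± 0.46 for Lce1k, each with an edgeR adjusted p of 0.000901. It was -5.96 ± 0.76 for Defb8 and -2.59 ± 0.38 for Skint1. Between days 5 and 1 (day 5 minus day 1), it was 7.11 ± 0.37 for Rptn (edgeR adjusted p = 3.25e-07), 2.52 ± 0.16 for Il1a, 3.16 ± 0.19 for Ptprz1, -6.28 ± 0.61 for Skint5 and -5.23 ± 0.53 for Krt77.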

How the results depend on the processing

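The count of 3617 genes (1974 higher, 1643 lower) ranged from 1677 to 4907 when 1 library was left out (933 to 2755 higher, 744 to 2152 lower), the high end without ethanol replicate 3. DESeq2 called 5274, of which 2646 were lower, and 6585 without ethanol replicate 3 (3559 higher, 3026 lower), a setting chosen after seeing the data. RLE scaling, the other filters and 1 fit over the 4 days gave 3607 to 4248.

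With a replicate block 3484 genes were called, 3041 of them shared with the fit without it. Same-numbered libraries did not all deviate together (correlations 0.299, -0.325 and 0.269 over 15791 genes) and did not all correlate best with their own number. Deviations from a mean of 3 libraries sum to 0, so this check cannot exclude a shared batch or pairing.

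Between days 8 and 5, 1509 genes differed by DESeq2, 35 with cohort B of day 8 alone, and 182 to 829 with 1 day 5 library left out. Between days 5 and 2 the count was 478 by DESeq2, 100 with no filter on low counts and 16 to 182 with 1 library left out. Between days 5 and 1 it was 1886 to 3749 with 1 library left out.

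Of 216 called genes named in the text, 159 kept direction and call in every setting and 0 reversed. Between 33 and 49 lost the call without 1 library other than ethanol replicate 3, and 5 without that one. Uncalled genes that changed sign were Il4 (0.078 with the replicate block, and -0.32 to 0.55 with 1 library left out), Krt5 (0.035 with the replicate block, 0.31 by DESeq2 without ethanol replicate 3, and -0.29 to 0.34 with 1 left out), Nefm (-0.49 to 0.20) and Pf4 (-0.40 to 0.14). Depth limits genes of a few reads in a group most.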

Other observations

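Serine protease inhibitors of the Serpina3 cluster on chromosome 12, which were singled out after their values were seen, moved in both directions. Of 12 tested, 1 was higher and 6 were lower, with a median log2 fold change of -1.67. Serpina3n, an acute-phase inhibitor, was the 1 that rose (1.37), while Serpina3j (-4.45), Serpina3h (-3.72) and Serpina3k (-2.19) fell. Without ethanol replicate 3, 7 were lower.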
